A study of Mus musculus with 15 samples.

Results

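REV-ERBα (Nr1d1), REV-ERBβ (Nr1d2) and RORα (Rora) are nuclear receptors of the mammalian circadian clock, and their ribosome-bound mRNA was followed through the day in mouse liver. Members were found by gene symbol, and 5 of the 28167 RefSeq transcripts counted in the files belonged to the 3 genes: 1 of Nr1d1, 1 of Nr1d2 and 3 of Rora. The livers came from wild-type male C57BL/6N mice aged 8 to 10 weeks, which had lived in 12 h light and 12 h dark for 2 weeks and then in constant darkness for 24 h. They were killed every 4 h at 7 circadian times (CT0 to CT24), 2 mice per time, which gave 14 libraries of ribosome-protected fragments. CT16 replicate 2 is listed as 2 samples that share 1 file of counts, which was used as 1 library. No group carried a mutation or received a treatment. The groups differ in circadian time and in the time spent in darkness that goes with it. By their titles CT0 to CT12 were collected on one day and CT16 to CT24 on the next, and CT0 and CT24 are the same circadian time on these days. Replicates were different mice, and a replicate number does not mark the same mouse at different times.

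REV-ERBα and REV-ERBβ repress transcription by recruiting a corepressor complex that holds the deacetylase HDAC3, and RORα activates it. Both kinds of receptor bind the same DNA element, the RORE, so that they compete at genes such as Bmal1 (Arntl), which encodes the activator that pairs with CLOCK. CLOCK and BMAL1 in turn act through E-boxes to switch on the REV-ERB genes, which closes a second feedback loop of the clock. In the liver the same receptors are known for control of lipid, bile acid and glucose genes.

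The files split the reads of a transcript between its leader, its CDS and its 3′UTR, and hold 40593197 to 90458783 counts per library. Hepatocyte markers summed to 33900 to 48700 CPM (counts per library total, with totals scaled by TMM) in every library, and 5 markers of T and innate lymphoid cells to at most 0.188 CPM. CT20 replicate 2 stood apart with 2780 CPM over 5 pancreatic acinar markers, against 0.159 CPM in CT16 replicate 2, the lowest library. In CT16 replicate 2 every nonzero count was even (100% of them, against 48.9% to 50.4% elsewhere), so its counting error is larger than its counts imply. Values that rest on these libraries are given without them where this changes a call. In whole liver, fewer cells of a type and fewer ribosomes per cell cannot be told apart, nor can mRNA abundance and translation from footprints alone.

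The start of each coding region is shown because the split of reads between leader and CDS differed between the 3 genes. From RefSeq on GRCm38.p6, with the start codon in capitals, the windows of the 2 REV-ERB transcripts and the 2 longer Rora transcripts read as follows.
Nr1d1 NM_145434: gctggtgaagacATGacgaccctg
Nr1d2 NM_011584: ctgtccagcgccATGgagctgaac
Rora NM_013646 (variant 1): gggaaaaaaaacATGgagtcagct
Rora NM_001289916 (variant 2): gcggcgtaaaggATGtattttgtg

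Nr1d1 lies on the minus strand at chr11:98767932-98775377, with 8 exons and a 5′UTR of 629 nt. Nr1d2 lies on the minus strand at chr14:18204056-18239106, also with 8 exons, and its 5′UTR has 280 nt. Rora is on the plus strand of chromosome 9, where variant 1 spans chr9:68653786-69388246 and variant 2 starts 636055 nt further on, at chr9:69289841-69388246. Variant 3 (NM_001289917) covers only chr9:68653786-68664967, with 3 exons. Upstream open reading frames (uORFs), each counted from an ATG to a stop codon in its frame that also lies in the leader, numbered 3 in Nr1d1, 3 in Nr1d2, 3 in Rora variant 2 and 0 in variants 1 and 3. Rora variant 2 has a further upstream ATG, out of frame with the CDS, whose reading frame of 135 nt runs past the CDS start and is not counted here.

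The uORF nearest the Nr1d1 CDS is a whole reading frame of 21 nt that ends 4 nt before the start codon, at chr11:98774753-98774773, start and stop codons in capitals.
Nr1d1 uORF: ATGaccgctttcagctggTGA
The other Nr1d1 uORFs have 117 and 192 nt. Those of Nr1d2 have 120, 51 and 48 nt, of which the 51 and 48 nt ones end at the same stop codon. The first ATG of each of these leaders follows the letters atcac. These ATGs are shown in capitals, with 6 bases before and 9 after, and open the uORFs at chr11:98775231-98775347 and chr14:18238896-18239015.
Nr1d1 first upstream ATG: aatcacATGgtacctgct
Nr1d2 first upstream ATG: gatcacATGgtcgaggag
In Rora variant 2 the uORFs, of 156, 141 and 129 nt, share a stop codon 3 nt before the CDS. The files give one count for a whole 5′UTR, so reads in single uORFs could not be separated.

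Nr1d1 carried the largest daily change of the 3 genes. Levels are given as RPKM, CDS reads scaled by the length of the CDS and by the library's total, with totals scaled by TMM. At CT0 the 2 mice had 0.672 and 0.806 RPKM, at CT4 15.5 and 7.66, and at CT8 28.1 and 20.1. At CT12 they had 6.27 and 10.2, and at CT16 3.34 and 1.70. At CT20 both had 0.657, and at CT24 they had 0.999 and 0.635. The libraries of CT4, CT8 and CT12 all lay above every other library, and both CT8 libraries lay above all the rest. The mean of CT8, 24.1 ± 5.61 RPKM (SD, n = 2), was 36.7-fold that of CT20.

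Behind these densities stood 4166 and 2364 CDS reads at CT8 and 51 and 73 at CT20. The means of CT0 and CT24, a day apart, were 0.739 ± 0.0943 and 0.817 ± 0.257 RPKM (SD, n = 2 each), with overlapping values. The Nr1d1 3′ end overlaps Thra, the thyroid hormone receptor α gene on the opposite strand, over 1075 nt (chr11:98767932-98769006). The overlap covers 200 nt of the Nr1d1 CDS and its whole 3′UTR of 288 nt, where only 15 reads were counted in all libraries together. Whether strand was used in counting is not given in the sources used here. Thra itself had 0.637 to 1.75 CPM and adjusted p = 0.0504 in the edgeR test used below.

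Nr1d2 rose later and less steeply. At CT0 it had 0.407 and 0.684 RPKM, at CT4 1.88 and 1.49, and at CT8 7.63 and 5.82. At CT12 it had 7.12 and 7.18, and at CT16 2.87 and 4.35. At CT20 it had 0.605 and 1.40, and at CT24 0.668 and 0.314. CT8 and CT12 overlapped with each other and lay above every other time, and CT16 lay between them and CT4. The mean of CT12, 7.15 ± 0.0452 RPKM (SD, n = 2), was 14.6-fold that of CT24, where the 2 libraries held 57 and 31 CDS reads.

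Rora varied the least of the 3 genes. Its variant 2, which had the most reads and stands for the gene here, had 7.24 and 7.37 RPKM at CT0, 4.91 and 5.47 at CT4, and 5.65 and 5.87 at CT8. It had 4.94 and 4.60 at CT12, and 5.72 and 6.34 at CT16. At CT20 the mice had 5.31 and 8.05, and at CT24 6.86 and 5.41. The 8.05 came from CT20 replicate 2, the library with the acinar markers. The highest and the lowest time, CT0 and CT12, did not overlap, while the mice of CT20 differed from each other by more than the highest and the lowest mean did. The CT0 mean of 7.30 ± 0.0914 RPKM was 1.53-fold the CT12 mean of 4.77 ± 0.24 (SD, n = 2 each). Depth behind each value was 314 to 681 CDS reads.

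**Figure D1:**
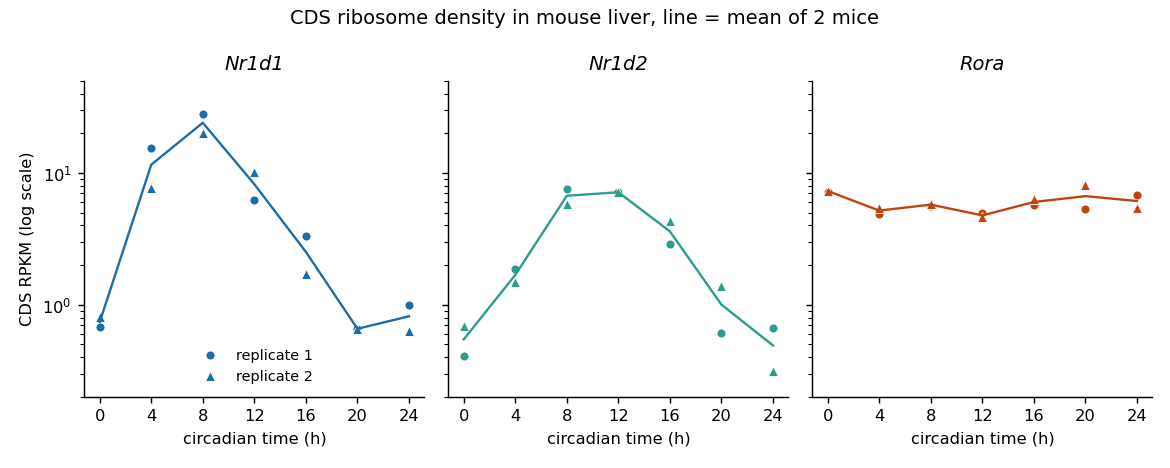
CDS ribosome density of Nr1d1, Nr1d2 and Rora (variant 2) in RPKM on a log axis against circadian time in h. Circles and triangles are the 2 mice of a time and lines join their means. Nr1d1 runs from 0.635 to 28.1 RPKM, Nr1d2 from 0.314 to 7.63, and Rora from 4.60 to 8.05.

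A cosine of 24 h was fitted to the reads of each transcript with edgeR (quasi-likelihood F test of both cosine terms, Benjamini-Hochberg adjustment), over the 17299 transcripts that averaged 10 counts or more per library. Of the 5 member transcripts 4 were tested, and 2 passed at an adjusted p under 0.05, Nr1d1 and Nr1d2, where 11.3% of all transcripts tested passed. Nr1d1 peaked at CT 8.54 ± 0.325 h (SE), with a peak-to-trough change of 5.57 ± 0.48 on the log2 scale, 47.3-fold, and adjusted p = 2.66e-07. Nr1d2 peaked at CT 11.0 ± 0.357 h, with a change of 4.02 ± 0.35, 16.3-fold, and adjusted p = 7.2e-08. Without CT20 replicate 2 the adjusted p was 4.48e-07 for Nr1d1 and 4.39e-08 for Nr1d2, and without CT16 replicate 2 it was 1.33e-06 and 2.83e-07 (edgeR). For comparison, the median change was 0.44 over all transcripts tested and 0.96 over the 1947 that passed. Among the 1815 passing transcripts that averaged 100 counts or more, 26 had a larger change than Nr1d1 and 39 a larger change than Nr1d2, all 5 acinar markers among both. Without CT20 replicate 2, the library with the acinar reads, 4 of 1718 had a larger change than Nr1d1 and 13 a larger change than Nr1d2, with none of the markers among them.

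Rora variant 2 did not pass, with a fitted change of 0.43 ± 0.16 on the log2 scale, a fitted peak at CT 22.0 ± 1.60 h and adjusted p = 0.185 in the same edgeR test. Variant 1 gave 0.41 ± 0.17 and adjusted p = 0.252. Without CT20 replicate 2 the fitted change of variant 2 was 0.34. The result for Rora depended on the scaling. By total count in place of TMM the change was 0.94 with adjusted p = 0.0664 in edgeR, and JTK_CYCLE, the exact rank test of the study's methods, gave p = 0.0196 on those values, adjusted over phases but not over transcripts. The edgeR p for variant 2 that is likewise not adjusted over transcripts was 0.0068 by total count and 0.0428 with TMM, so JTK_CYCLE was not alone in falling under 0.05 before adjustment. TMM moved the libraries against total count by -0.55 (CT0 replicate 1) to 0.44 (CT12 replicate 2) on the log2 scale, a shift shared by all transcripts that itself followed a cosine of 0.46 with its peak at CT 10.4 h.

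The 2 longer Rora transcripts cannot be counted apart over most of their length. They share 1376 nt of CDS and had identical 3′UTR counts in all 14 libraries. Variant 2 has 28 nt of CDS of its own, and variant 1 has 196 nt, of which 166 nt lie in the distant exon 1. Even so variant 2 had more CDS reads than variant 1 in 14 of 14 libraries, by 2 to 26 reads and by 165 in sum. The 5′UTR of variant 2 held 147 reads in 12 libraries and that of variant 1, only 21 nt long, held 0. Variant 3, which shares the 166 nt of CDS in exon 1 of variant 1, had 29 CDS reads in 5 libraries and was too low to test. Reads that mark the upstream start were therefore few, at 0.119 per nt of CDS of variant 3, against 5.00 per nt of CDS of variant 2. Rorb, another ROR gene, was listed at 0 in all 14 libraries.

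On the scale of CDS RPKM over all 14 libraries, Nr1d1 averaged 6.95 ± 8.67, Rora 5.98 ± 1.04 and Nr1d2 3.03 ± 2.80 (SD, n = 14). The SDs of the REV-ERB genes are mostly change with time, and no neighbours in this order differ beyond their spread. The order turned over within the day: Nr1d1 was above Rora in every library of CT4, CT8 and CT12 and below it in all others, and Nr1d2 was above Rora in both mice at CT12 and in 1 of the 2 at CT8.

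The balance of repressor to activator was taken inside each library as the log2 ratio of the summed Nr1d1 and Nr1d2 CDS densities to that of Rora, so that the scale of the library cancels. It was -2.75 and -2.31 in the mice of CT0, 1.82 and 0.74 at CT4, and 2.66 and 2.14 at CT8. It was 1.44 and 1.92 at CT12, 0.12 and -0.07 at CT16, -2.07 and -1.97 at CT20, and -2.04 and -2.51 at CT24. REV-ERB reads thus exceeded Rora reads per length in every library of CT4 to CT12, were close to them at CT16 and were fewer at CT20, CT24 and CT0.

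At its highest, at CT8, the ratio averaged 2.40 ± 0.36 on the log2 scale (SD, n = 2), which is 5.29 REV-ERB reads for each Rora read of equal length. At its lowest, at CT0, it averaged -2.53 ± 0.31, or 5.76 Rora reads for each REV-ERB read. A cosine fit to the 14 values gave a peak-to-trough change of 5.23 ± 0.46, 37.5-fold, with its peak at CT 9.41 ± 0.347 h. The spread between mice of the same time was 0.39 (pooled SD on the log2 scale). No p is given for this ratio, since it is a score over genes chosen for it. Whole-transcript reads in place of CDS density gave a change of 5.25. Nr1d1 alone over Rora gave 5.92 and Nr1d2 alone 4.51.

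**Figure D2:**
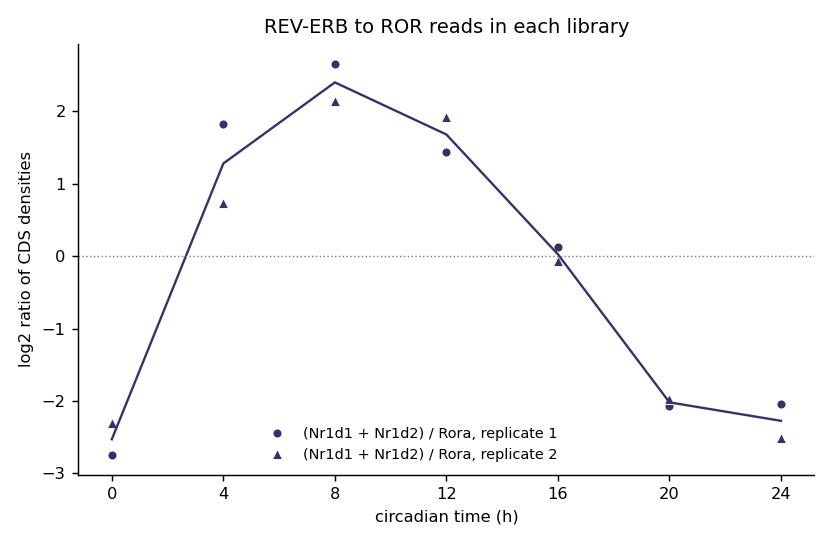
Log2 ratio of summed Nr1d1 and Nr1d2 CDS density to Rora CDS density in each library against circadian time in h, with circles and triangles for the 2 mice of a time, a line through their means and a dotted line at equal density. The ratio is above 0 in 7 of 14 libraries, at CT4, CT8, CT12 and in 1 mouse at CT16.

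The REV-ERB genes also moved against each other. The log2 ratio of Nr1d1 to Nr1d2 CDS density was 0.72 and 0.24 in the mice of CT0, 3.04 and 2.36 at CT4, and 1.88 and 1.79 at CT8. It was -0.18 and 0.51 at CT12, 0.22 and -1.36 at CT16, 0.12 and -1.09 at CT20, and 0.58 and 1.02 at CT24. Nr1d1 was ahead most at CT4, where the mean ratio was 6.49-fold, and both CT4 libraries lay above all others. The mice of CT16 and of CT20 fell on either side of equality. The values below it there, -1.36 and -1.09, came from CT16 replicate 2, with its even counts, and CT20 replicate 2, with its acinar reads. The amplitude of a cosine over the 14 ratios, 3.26 ± 0.49 peak to trough on the log2 scale with its peak at CT 5.46 h, was tested with 100000 shuffles of the time labels and gave p = 6e-05 (permutation test, which has no sides for an amplitude, 1 comparison). Both genes were chosen with earlier results of these data known, which this p does not allow for. The fitted peaks of the genes were 2.46 h apart, Nr1d1 the earlier.

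**Figure D3:**
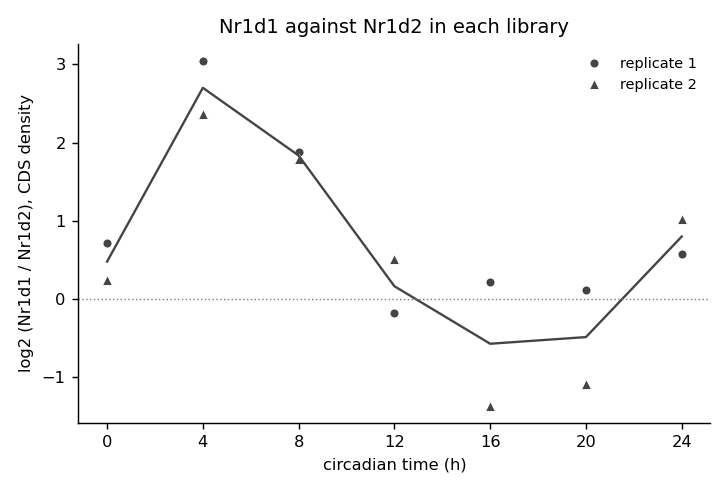
Log2 ratio of Nr1d1 to Nr1d2 CDS density in each library against circadian time in h, with circles and triangles for the 2 mice of a time, a line through their means and a dotted line at equal density. Means run from 2.70 at CT4 to -0.57 at CT16, where replicate 1 was at 0.22 and replicate 2, the library of even counts, at -1.36.

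Both REV-ERB leaders held many ribosomes and the Rora leader few. Summed over the 14 libraries, the 5′UTR held 25.0% of the 5′UTR and CDS reads of Nr1d1 (4055 against 12153), 20.5% of those of Nr1d2 (1254 against 4852) and 2.04% of those of Rora variant 2 (147 against 7070). Over the 7640 transcripts that averaged 10 counts or more in each of these regions, the median was 9.65%. A higher share than Nr1d1 was found in 16.5% of these transcripts, a higher share than Nr1d2 in 22.8% and a higher share than Rora in 91.0%. Per nt the Nr1d1 5′UTR was read about as densely as its CDS (ratio 0.985), the Nr1d2 5′UTR more densely (1.61) and the Rora 5′UTR less (0.163). On this scale the REV-ERB genes change places, as 29.7% of transcripts had a higher value than Nr1d1, 12.4% a higher value than Nr1d2 and 90.8% a higher value than Rora. The median over all was -0.65 as a log2 ratio, against -0.02 for Nr1d1, 0.68 for Nr1d2 and -2.61 for Rora.

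Within Nr1d1, 13 of 14 libraries had 5′UTR shares between 20.4% and 33.9%, and CT20 replicate 1 had 0 of 51 reads (95% Wilson interval 0 to 7.0%). Its CT20 partner had 27.7% (19.9 to 37.1). In Nr1d2 the shares ranged from 0% in CT24 replicate 2, with 31 CDS reads (0 to 11.0%), to 44.3% in CT20 replicate 1 (33.9 to 55.3%). CT12 replicate 1 with 14.9% (12.9 to 17.0) and its partner with 25.8% (23.2 to 28.7) did not overlap, so that mice of the same time differed by more than counting error. In Rora variant 2 the shares ran from 0% to 5.01%, the highest in CT0 replicate 1 (3.57 to 6.98). These intervals cover counting error only.

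Leader reads over CDS reads, as a log2 ratio, were tested for a 24 h cosine with limma over the same 7640 transcripts. It gave adjusted p = 0.842 for Nr1d1, 0.911 for Nr1d2 and 0.859 for Rora. Over all transcripts 0 passed (0.0%), and 377 (4.93%) had an unadjusted p under 0.05. Fitted changes were 1.49, 0.85 and 1.65 on the log2 scale, and without CT20 replicate 1 the Nr1d1 value was 0.37, so it rested on that library. The Nr1d2 value was 0.43 without CT24 replicate 2 and 1.58 without CT20 replicate 1. A rhythm in the share of leader reads was not detectable at this depth, while the leader reads of Nr1d1 numbered 1417 and 769 at CT8 and 0 and 28 at CT20.

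**Figure D4:**
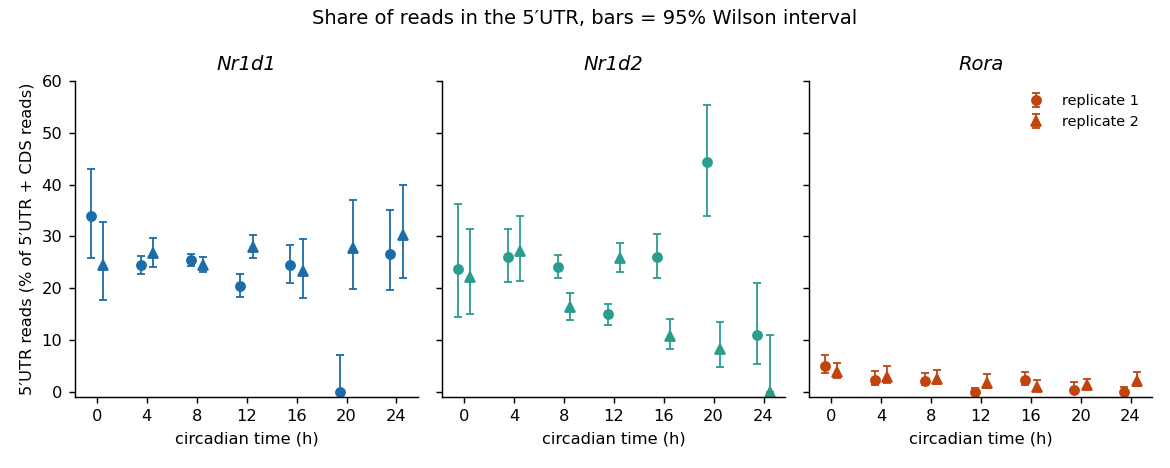
Percent of 5′UTR and CDS reads that fall in the 5′UTR of Nr1d1, Nr1d2 and Rora variant 2 in each library, against circadian time in h, with circles and triangles for the 2 mice and bars for 95% Wilson intervals, which are too narrow for CT16 replicate 2, as they use its even counts as given. Nr1d1 stays between 20.4% and 33.9% in all but 1 library, and Rora is at or below 5.01%.

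Promoters of the members and of the clock genes that carry ROREs were searched because receptors and their targets lie in one loop. RefSeq promoters (GRCm38.p6, 250 bases before to 50 after the start) were scanned on both strands for the RORE, here the letters AGGTCA with ANNT directly before them, for AGGTCA alone, which is part of every RORE, and for the E-box CACGTG, the E′-box CACGTT and the D-box TTATGNAA. The following windows, 1 per gene, hold a match, in capitals, printed in the direction of transcription.
Nr1d1, chr11:98775388-98775417, E′-box on the other strand, 28 bases before the start: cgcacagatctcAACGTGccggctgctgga
Nr1d2, chr14:18239166-18239195, AGGTCA: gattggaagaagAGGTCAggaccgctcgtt
Arntl, chr7:113207528-113207557, RORE: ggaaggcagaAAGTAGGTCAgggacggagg
Nfil3, chr13:52981034-52981063, AGGTCA on the other strand: ggcgctcggaacTGACCTactaacacacat
Cry1, chr10:85185097-85185126, E-box: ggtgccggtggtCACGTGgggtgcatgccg

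Among all 32851 promoters, 0.70% held the RORE, 16.3% the AGGTCA core, 7.15% the E-box, 4.68% the E′-box and 3.38% the D-box, the RORE of Arntl being the rarest match. Among the clock genes searched, only Arntl had a RORE in its window, 27 bases after the start. Clock also held AGGTCA on the other strand, 119 bases before its start, and Cry1 an E′-box on the other strand 79 bases before its start, windows that are not printed. No match was found in the promoters of Rora, listed for the start of variant 1, or Npas2. A match is a run of letters in the window, and binding was not measured.

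The clock genes with known ROREs peaked on the other side of the day from the balance. All 5 passed the edgeR test (11.3% of all transcripts passed) with fitted peaks between CT 21.0 h and CT 1.19 h, and their summed level was lowest in CT12 replicate 1 at 9.57 CPM and highest in CT0 replicate 2 at 42.1 CPM. The median change was 2.30 on the log2 scale, against 0.44 over all transcripts tested.

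Arntl, the BMAL1 gene, changed by 3.92 ± 0.54 on the log2 scale (SE) with its peak at CT 23.0 h and adjusted p = 6.26e-05, and ranged from 0.296 to 9.06 CPM. Npas2, which can take the place of CLOCK, changed by 6.47 ± 0.62 with its peak at CT 1.19 h and adjusted p = 2e-05. It averaged 0.902 CPM and was 0 CPM at its lowest, so the size of its change rests partly on values at the floor. Cry1, a repressor of CLOCK and BMAL1, changed by 2.30 ± 0.22 and peaked at CT 21.0 h (adjusted p = 4.33e-06). Nfil3, a D-box repressor, changed by 2.1 ± 0.45 and peaked at CT 22.6 h (adjusted p = 0.00238). Clock itself changed least, by 0.91 ± 0.27, with its peak at CT 0.309 h and adjusted p = 0.0407. Mean levels were lowest at CT12 for Arntl, Clock, Npas2 and Cry1 and at CT8 for Nfil3, times at which the REV-ERB to Rora ratio was high. The ratio was also high at CT4, at 2.43, where Clock and Npas2 had their highest mean levels. The 5 genes summed to 33.8 CPM at CT4, against 40.2 at CT0 and 9.73 at CT12. Whether the ratio bears on these levels was not tested.

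**Figure D5:**
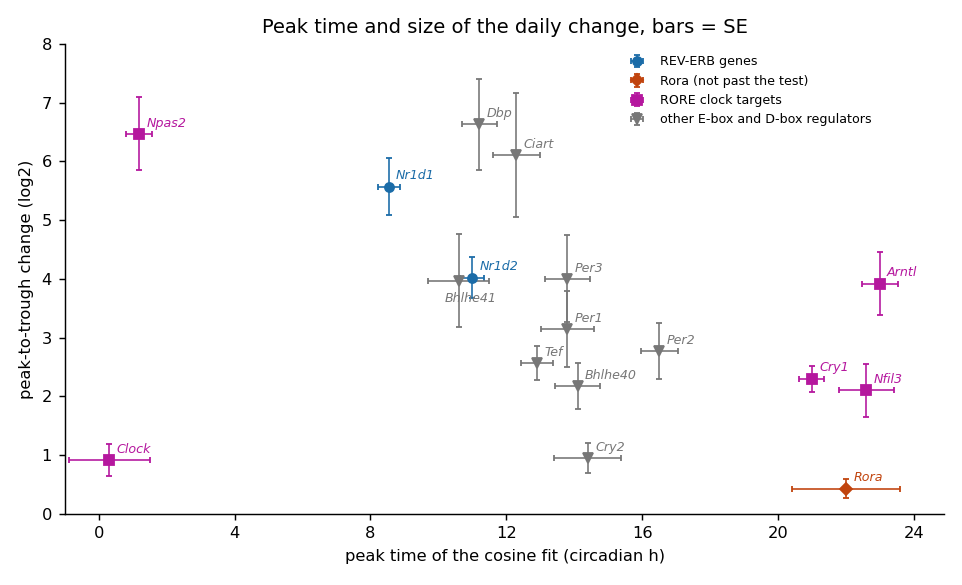
Fitted peak time in circadian h and peak-to-trough change on the log2 scale of Nr1d1, Nr1d2, Rora, the clock genes with ROREs and the other E-box and D-box regulators that passed the test, with SE bars in both directions. Rora, which did not pass, is drawn for comparison. Nr1d1 at CT 8.54 h lies before the dusk group, which runs from Bhlhe41 at CT 10.6 h to Per2 at CT 16.5 h, and Nr1d2 at CT 11.0 h lies within it.

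Of the 15 E-box and D-box regulators that act on the REV-ERB genes, 14 passed (11.3% of all transcripts tested did), 5 of them the genes above and the other 9 with peaks between CT6 and CT18. Dbp, a D-box activator, changed by 6.63 ± 0.77 on the log2 scale with its peak at CT 11.2 h (adjusted p = 5.74e-07), close to Nr1d2. Ciart, a repressor of CLOCK and BMAL1, changed by 6.11 ± 1.06 at CT 12.3 h, with a mean of 1.7 CPM and 0 CPM at its lowest. Tef, a relative of Dbp, changed by 2.56 ± 0.29 at CT 12.9 h. The PER genes, which encode partners of the CRY repressors, followed, Per1 and Per3 at CT 13.8 h and Per2 at CT 16.5 h. Bhlhe41, a DEC repressor, peaked at CT 10.6 h and Bhlhe40, its relative, at CT 14.1 h. Hlf, the remaining D-box activator, did not pass (0.74 ± 0.23, adjusted p = 0.0614). Without CT16 replicate 2, 13 of 15 passed, as Cry2 (0.95 ± 0.26 in the full set) no longer did, and the same 13 passed by total count. With DESeq2 all 15 passed, Hlf included.

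Of 5 corepressor complex genes (Ncor1, Hdac3, Tbl1x, Tbl1xr1 and Gps2), 0 passed in edgeR and 0 in the DESeq2 likelihood ratio test, and 0 had an unadjusted p under 0.05 (11.3% of all transcripts tested passed in edgeR). Their median change was 0.28 on the log2 scale and their summed level 33.5 to 45.4 CPM. Of 5 ROR coactivators 1 passed, Ppargc1a, the PGC-1α gene, with a change of 1.66 ± 0.55, its peak at CT 12.0 h and adjusted p = 0.0397 at a mean of 1.24 CPM. It did not pass without CT16 replicate 2 or by total count, with which 0 of the 5 passed. With lists this short, no difference from the share over all transcripts is read from these counts.

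Of 8 enzymes that stabilize or degrade REV-ERB or its regulators, 2 passed, where 11.3% of all transcripts tested passed, and nothing is read from a count this small. Huwe1, a ubiquitin ligase, changed by 0.51 ± 0.08 on the log2 scale with its peak at CT 11.8 h (adjusted p = 0.0111). Spsb4, an adaptor of a ubiquitin ligase, changed by 1.67 ± 0.30 with its peak at CT 1.00 h (adjusted p = 0.0245). By total count only Spsb4 passed, 1 of 8. The kinase genes Gsk3a and Gsk3b did not pass, with adjusted p of 0.934 and 0.844.

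Of 16 metabolic genes known to be bound or controlled by the receptors in liver, 15 were tested (Fgf21 was too low), and 9 passed, where 11.3% of all transcripts tested passed, 7 of them with peaks between CT18 and CT6, a window that held 46.0% of all passing transcripts (5.18% of those tested). The most strongly changed was Elovl3, a fatty acid elongase, with 3.97 ± 0.26 on the log2 scale, its peak at CT 0.347 h and adjusted p = 2.25e-08. Insig2, which holds back the SREBP lipid regulators, changed by 2.20 ± 0.34 with its peak at CT 1.40 h, and Avpr1a, a vasopressin receptor, by 1.92 ± 0.22 at CT 0.337 h. Cyp8b1, a sterol hydroxylase of bile acid synthesis, changed by 1.56 ± 0.16 at CT 1.12 h, Elovl5 by 1.23 ± 0.15 at CT 0.637 h, Plin2, a lipid droplet coat protein, by 0.98 ± 0.18 at CT 1.98 h, and Lpl, lipoprotein lipase, by 1.92 ± 0.24 at CT 4.04 h.

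Cyp7a1, the rate-limiting enzyme of bile acid synthesis, and Pck1, a gluconeogenic enzyme, peaked on the other side of the day. Cyp7a1 changed by 2.74 ± 0.41 with its peak at CT 15.4 h (adjusted p = 5.76e-05), and Pck1 by 1.92 ± 0.21 with its peak at CT 11.5 h (adjusted p = 3.16e-06). The 6 tested genes that did not pass had fitted changes of 0.15 to 1.09, the former Apoa1 and the latter Cyp7b1. By total count 11 of 15 passed, with G6pc and Scd1 added, and by DESeq2 10, with Scd1 added. Over all 6 lists together 26 of 48 tested genes passed (54.2%), with a median change of 1.02, against 11.3% and 0.44 over all transcripts tested. The lists were drawn from genes known to cycle or to answer to these receptors, so these shares say nothing about the receptors themselves.

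Genes with the most similar pattern were ranked by Pearson r of log2(CPM + 0.5) over the 14 libraries, among 8144 genes with a mean of at least 100 counts, as a description. The libraries share time points, depth and composition. For Nr1d1 they were Wdr45, an autophagy protein (r = 0.912), Dcun1d4, a cullin neddylation factor (0.895), and Fbxl20, an F-box protein (0.892), whose changes of 0.78, 1.34 and 1.33 on the log2 scale were all smaller than that of Nr1d1. For Nr1d2 they were Slc38a3, a glutamine transporter (0.947), Fnip1, a folliculin partner (0.928), and Npc1, a lysosomal cholesterol transporter (0.924). For Rora they were Pex5, the peroxisomal import receptor (0.825), Zfp395 (0.808) and Lad1 (0.800), none of which passed the rhythm test.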

How the data were processed

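The authors deposited raw counts of ribosome-protected reads for every RefSeq transcript, split into leader (5′UTR), CDS and 3′UTR, 1 file per library. According to the study's methods and processing notes they clipped reads, removed rRNA with Bowtie2 2.1.0.0, aligned to mm10 and kept reads of 26 to 32 nt, with SAMtools 0.1.19.0. How a read shared by transcripts was counted is not given in the sources used here. The identical 3′UTR counts of the longer Rora variants show that transcripts of a gene can share reads, so calls over transcripts are not independent. With 1 transcript per gene, 1251 of 11747 passed in edgeR. Replicates are separate mice. The titles of the last pair hold CT00 and, in brackets, CT24, while a label field gives CT00, and CT24 was used.

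Symbols came from RefSeq (GRCm38.p6) for 27840 of 28167 transcripts. Region lengths agreed within 1 nt per exon. Reads of the 3 regions were summed and tested with edgeR 4.0.16 (TMM, 24 h cosine) in R 4.3.3, with DESeq2 1.42.0, limma 3.58.1 (pseudocount 0.5) and a JTK_CYCLE written in Python 3.11.15 beside it. SEs come from a least-squares cosine on log2 CPM. Steps were tested on simulated data. Total counts were 40593197 to 90458783, and intervals are 95% Wilson.

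Named genes were the members, the 3 genes most like each, and genes of 6 lists. Members and lists were chosen with earlier results of these data known. 2 list genes, and a variant of the repressor to activator ratio that needs 1 of them, are not reported here. Alternatives were other scalings, count minimums, regions, tests, pseudocounts, the replicate block and each library left out. List counts without CT16 replicate 2 or CT20 replicate 2, by total count and by DESeq2, and ranks of the changes without CT20 replicate 2 were added after seeing the data. Replicate numbers did not pair the mice.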

Additional observations from a re-analysis of the deposited data

How the results depend on the processing

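Nr1d1 and Nr1d2 passed under all 14 alternatives and with each library left out, with adjusted p from 4.77e-08 to 2.09e-06 and from 4.39e-08 to 8e-07 in the latter. Rora had adjusted p over 0.05 in every edgeR and DESeq2 fit, and by the exact rank test JTK_CYCLE on CPM by total count p = 0.0196 for both longer variants, which is not adjusted over transcripts (edgeR p before adjustment 0.0068 by total count and 0.0428 with TMM for variant 2). It had adjusted p from 0.091 to 0.360 with a library left out. The number of rhythmic transcripts, 1947, was 1251 with 1 transcript per gene, 1225 with time as 7 levels, 3846 and 3074 by JTK_CYCLE on total count and TMM CPM, not adjusted over transcripts, and 1499 to 2062 with a library left out. The balance, 5.23, was 5.92 with Nr1d1 alone, 4.51 with Nr1d2 alone, and 5.07 to 5.44 with a library left out. The p for Nr1d1 against Nr1d2 ran from 4e-05 to 0.00028. Ratio tests with a library left out gave adjusted p of 0.716 to 0.929 (Nr1d1), 0.853 to 0.956 (Nr1d2) and 0.702 to 0.933 (Rora, 12 of 14 fits), and 0 calls throughout. List counts without CT16 replicate 2 or CT20 replicate 2 were 0 for corepressors, 0 to 1 for coactivators (0 by total count) and 2 for turnover enzymes (1 by total count). The cause of these moves was not tested.

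The replicate block left 1916 calls and changed no member's call (Rora adjusted p = 0.201). Deviations of same-numbered mice correlated between times at r = -0.0584 to 0.173, over 0.1 for 3 of 21 pairs of times. With 2 mice per time an SD rests on 2 values, and at the lowest time of Nr1d1 and Nr1d2 on 31 to 73 CDS reads per library.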
